A study of Mus musculus with 48 samples.

Results

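The regulators of the integrated stress response measured here are 10 genes of the mouse count table, found by their symbols among 51789 gene IDs, of which 51596 could be paired with a symbol. They are Atf4, Atf5, Ddit3, Cebpg, Ppp1r15a, Trib3, Chac1, Sesn2, Ddit4 and Vldlr, and each matched 1 gene ID. All 10 passed the filter on low counts in both fits of the data. Their expression is described in 8 macrophage populations given AP-3-84, a compound the labels name by code without describing it, or its vehicle DMSO.

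The integrated stress response begins when a kinase (PERK, GCN2, HRI or PKR) phosphorylates the translation factor eIF2. Translation of most mRNAs then falls, while that of Atf4 and a few other mRNAs with short upstream reading frames rises. ATF4 switches on genes for amino acid supply, redox balance and, if the stress persists, cell death. Since ATF4 is controlled largely at translation, the mRNA of its targets is usually read beside its own. In macrophages the same pathway is tied to endoplasmic reticulum stress, amino acid shortage and inflammatory signalling.

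Cells were exposed for 4 h to AP-3-84 at 10 µM or to DMSO alone, with 3 libraries in each of 16 groups. The ascites population was F4/80+ cells, sorted with magnetic beads from peritoneal washes taken 45 days after mice had received ID8 cells (a murine line of ovarian cancer), with the genotype given as B6(Cg)-Tyrc-2J/J. The thio population was F4/80+ cells sorted in the same way from C57BL/6 mice labelled wild-type, collected 4 days after they had been given thioglycollate (1 ml at 3%), an irritant that attracts macrophages. Bone marrow-derived macrophages made up the remaining 6 populations, wild-type (WT) or p53 knockout (KO) by title, grown for 6 days with 10 ng/mL M-CSF. M0 cells received nothing more, M1 cells received LPS (100 ng/mL) plus IFN-γ (50 ng/mL) and M2 cells IL-4 plus IL-13 (10 ng/mL each), both for another 24 h. The populations are written WT_M0, WT_M1, WT_M2, KO_M0, KO_M1 and KO_M2, and the labels do not say which libraries came from separate mice or cultures, so every p-value measures only the spread between libraries. Ascites and thio cells differ in the labelled strain genotype as well as in the stimulus.

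The 12 peritoneal libraries held 15532373 to 19417581 counts each, and the 36 bone marrow-derived ones only 3081707 to 4645148, so low genes were measured more precisely in the former. The genotype field calls all bone marrow-derived libraries wild-type, and the titles were followed. Trp53, the gene for p53, stood at 4.79 to 13.2 CPM in the libraries titled WT and 2.7 to 9.11 CPM in those titled KO, and since the deleted part is not stated, a 3′ count does not check the knockout. The p53 target Cdkn1a stood at 555 to 1120 CPM (counts scaled to a common library size, with TMM factors) in the libraries titled WT and at 34.1 to 292 CPM in those titled KO. All 10 macrophage markers had counts in every group. Markers of T and NK cells summed to at most 2.23 CPM, whereas 9 epithelial or ID8 markers summed to 211 to 272 CPM in ascites and 2.81 to 4.98 CPM in thio libraries. In such bulk libraries fewer cells of a type and less RNA per cell cannot be told apart.

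ATF4 acts on DNA as a dimer with a C/EBP protein at composite sites, and CREB and ATF dimers bind the palindrome TGACGTCA. The windows from 250 bases before to 50 bases after the annotated starts of the members (12 windows for 10 genes, RefSeq, GRCm38.p6) were searched on both strands for TGATGNAA, a form of the composite site, for TGACGTCA, and for the endoplasmic reticulum stress element, known as ERSE. TGATGNAA was found in the windows of Chac1 and Trib3 and in 1 of 2 windows of Vldlr, against 3.97% of 32851 windows of the same length over all genes. TGACGTCA was found only in that of Ppp1r15a, against 1.79% of all windows, and the stress element in none, against 0.119%. The 3 sequences below belong to genes with calls under the compound, read 5′ to 3′ along the gene's strand, with the matched letters in capitals. The first is chr2:119350992-119351241 (+), upstream of Chac1, the second chr2:152344028-152344057 (-), at the RefSeq start of Trib3, and the third chr7:45526269-45526518 (-), upstream of Ppp1r15a.
Chac1: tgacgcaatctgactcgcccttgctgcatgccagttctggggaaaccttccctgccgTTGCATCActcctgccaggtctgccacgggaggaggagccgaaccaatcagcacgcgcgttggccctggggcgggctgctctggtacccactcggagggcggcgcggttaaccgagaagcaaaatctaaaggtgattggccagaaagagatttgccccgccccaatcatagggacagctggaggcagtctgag
Trib3: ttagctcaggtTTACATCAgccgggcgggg
Ppp1r15a: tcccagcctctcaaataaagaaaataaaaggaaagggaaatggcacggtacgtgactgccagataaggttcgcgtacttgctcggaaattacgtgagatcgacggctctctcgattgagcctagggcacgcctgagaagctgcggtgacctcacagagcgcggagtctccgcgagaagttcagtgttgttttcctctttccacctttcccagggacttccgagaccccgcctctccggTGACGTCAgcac
In Chac1 and Trib3 the capitals are the composite site on the opposite strand. By RefSeq it lies 193 to 186 bases before the start in Chac1 and 15 to 22 bases after it in Trib3. By GENCODE M21 Trib3 starts at 152344032 on the minus strand, which puts these letters before its start. In Ppp1r15a the palindrome lies 12 to 5 bases before the start. A match of letters describes the sequence and says nothing of binding.

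With AP-3-84, members rose in 3 of 8 populations at an edgeR adjusted p under 0.05. Trib3 and Atf4 were called in all 3, and the other called members were not the same in each. Such a mismatch of calls is no test of a difference: tested directly, 0 members differed between ascites and thio. In ascites macrophages 3 members rose and 0 fell (Ppp1r15a, Trib3 and Atf4), where 1.79% of the 16955 genes tested were called and 1.69% were higher. In thio macrophages 6 rose and 0 fell (Trib3, Ppp1r15a, Sesn2, Atf4, Ddit3 and Atf5), against 4.32% of genes, with 2.51% higher. In KO_M0 5 rose (Chac1, Trib3, Sesn2, Ddit3 and Atf4) and Cebpg fell, in a population where 20.7% of the 11779 genes tested were called, 12.1% higher and 8.57% lower. All treated libraries were above all vehicle ones for 6 members in ascites, 6 in thio and 5 in KO_M0, against 9.86%, 12.7% and 15.4% of genes, and below them for 0, 1 and 1, against 6.41%, 10.6% and 16.7%. The median log2 fold change of the 10 members was 0.42 in ascites, 0.65 in thio and 0.71 in KO_M0, beside medians over all genes between -0.03 and 0.03.

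In the other 5 populations edgeR called 0 members. The background there was low: 0.144% of genes were called in WT_M0, 0.017% in WT_M1, 1.21% in WT_M2, 0% in KO_M1 and 0.0509% in KO_M2. At an unadjusted p under 0.05 the members numbered 1 in WT_M0, 5 in WT_M1, 3 in WT_M2, 0 in KO_M1 and 3 in KO_M2, against 9.4%, 7.28%, 11.8%, 1.75% and 12.3% of genes. DESeq2 called 2 members in WT_M1, Trib3 and Ppp1r15a, beside 0.238% of genes. It called 0 in WT_M0, WT_M2, KO_M1 and KO_M2, beside 0.348%, 2.28%, 0% and 0.543% of genes. In WT_M1, 7 of 10 members had all 3 treated libraries above all 3 vehicle libraries, which held for 9.6% of genes, and their median log2 fold change was 1.25 beside 0.01 for all genes. The call in WT_M1 depended on the fit: Trib3, Ppp1r15a and Ddit3 were called when only the libraries of that population were fitted. In that fit 1.08% of the 9950 genes tested were called.

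**Figure D1:**
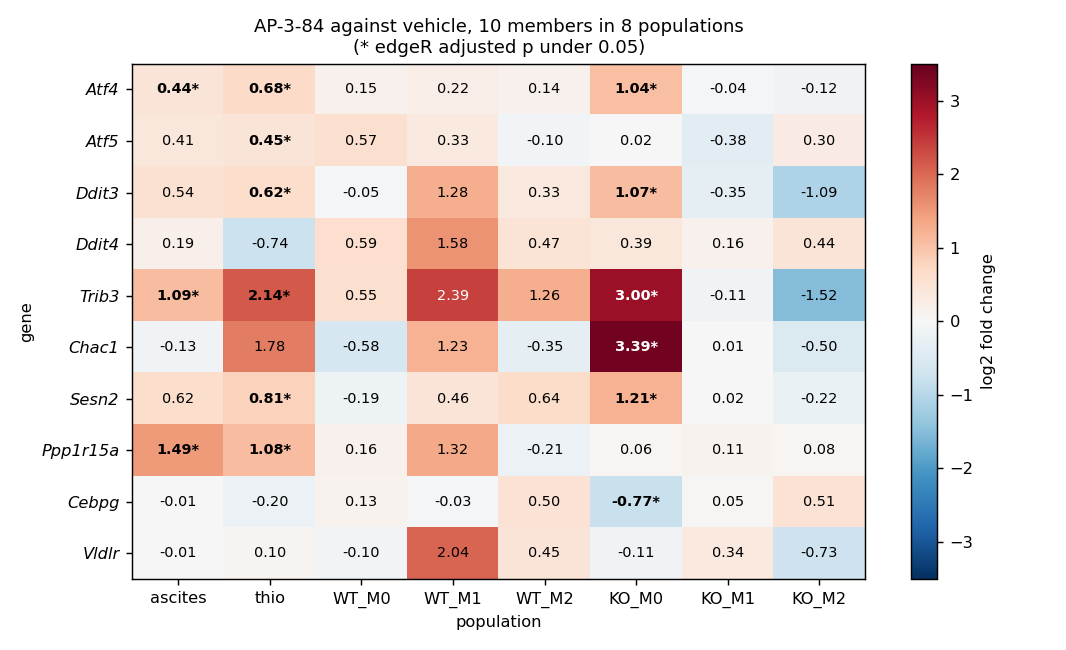
Log2 fold change of each member (rows) with AP-3-84 against vehicle in each population (columns, 3 libraries a group), as color and number, with an asterisk at an edgeR adjusted p under 0.05. Trib3 reaches 2.14 in thio and 3.00 in KO_M0, WT_M1 holds large values without a call, and KO_M1 values lie between -0.38 and 0.34.

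Atf4, on chromosome 15 (80255184 to 80257541, plus strand, GRCm38 with the GENCODE M21 annotation, as for the members below), encodes the transcription factor at the centre of the pathway. In ascites macrophages it stood at 176, 176 and 171 CPM with vehicle and at 279, 210 and 219 CPM with AP-3-84. In thio macrophages the values were 154, 147 and 148 CPM and 229, 247 and 245 CPM. In KO_M0 they were 118, 135 and 163 CPM and 276, 380 and 199 CPM. In each of these populations every treated library lay above every vehicle library. The log2 fold change was 0.44 in ascites (with an SE of 0.0847 and edgeR adjusted p of 0.00782), 0.68 in thio (with an SE of 0.0851 and edgeR adjusted p of 0.000115) and 1.04 in KO_M0 (with an SE of 0.188 and edgeR adjusted p of 0.000202). In the 5 populations without a call it ranged from -0.12 to 0.22, and in WT_M1 the treated libraries (124, 143 and 122 CPM) were still all above the vehicle libraries (103, 115 and 115 CPM). Leaving out any 1 library kept the call of Atf4 in these 3 populations. The ascites call was lost when only the groups compared were fitted (edgeR adjusted p 0.14) and in a fit of all 48 libraries (0.955, the lowest of its alternatives being 1.97e-06), and the thio call in the latter (0.0707, the lowest being 2.36e-16).

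Atf5 and Cebpg, like Ddit3 described below, are bZIP relatives of Atf4 among the members. Atf5 (chromosome 7, 44812256 to 44816658, minus strand), whose mRNA is also translated more under the stress response, rose in thio from 16.5, 17.1 and 19 CPM to 24, 23.3 and 24.8 CPM. Its log2 fold change there was 0.45 (with an SE of 0.112 and edgeR adjusted p of 0.0275), and the groups did not overlap. That call was narrow, since it was lost without either of vehicle replicates 1 and 2 or any 1 of the 3 treated libraries (edgeR adjusted p 0.063 to 0.135, from 0.0257 to 0.897 over all alternatives). In ascites its log2 fold change was 0.41, without a call (edgeR adjusted p 0.0863). The start of Atf5 overlaps Nup62 and Il4i1 on the opposite strand. In WT_M0 Atf5 was the 1 member whose groups did not overlap, at 23.3, 18.6 and 27.3 CPM against 35.3, 36.7 and 31.1 CPM, where 9.08% of genes had treated libraries above all vehicle ones (log2 fold change 0.57, edgeR adjusted p 0.498).

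Cebpg (chromosome 7, 35046422 to 35056573, minus strand), the dimer partner C/EBPγ, was the only member to fall. In KO_M0 it went from 61.1, 55.7 and 49.2 CPM with vehicle to 26.3, 23.2 and 48.2 CPM with AP-3-84. The third treated library lay just under the lowest vehicle library and the other 2 well below. The log2 fold change was -0.77 (with an SE of 0.212 and edgeR adjusted p of 0.00969), and the call was lost without treated replicate 1 (edgeR adjusted p 0.0777) or 2 (0.115, the highest of its alternatives, the lowest being 7.39e-05). In thio Cebpg was lower in all 3 treated libraries (109, 107 and 106 CPM against 125, 119 and 127 CPM), by a log2 fold change of -0.20 that was not called (edgeR adjusted p 0.126). The sign was not shared: in WT_M2 and KO_M2 the values were 0.50 and 0.51, with no overlap of groups and edgeR adjusted p of 0.316 and 0.302. Treated libraries were above all vehicle ones for 6% of genes in KO_M2, and Cebpg was the 1 such member there.

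Ddit3 (chromosome 10, 127290774 to 127296288, plus strand) encodes CHOP, the factor through which prolonged stress reaches cell death genes. In thio it rose from 42.9, 43.5 and 43.6 CPM to 55.7, 72.2 and 72.6 CPM (log2 fold change 0.62 with an SE of 0.134 and edgeR adjusted p of 0.0168). In KO_M0 it rose from 25.9, 27.1 and 36 CPM to 42.7, 96 and 48.7 CPM (log2 fold change 1.07 with an SE of 0.358 and edgeR adjusted p of 0.0327). Both sets of groups were apart, and treated replicate 2 of KO_M0 was the highest. The KO_M0 call was lost without that library (log2 fold change 0.62, edgeR adjusted p 0.316, the highest of its alternatives, the lowest being 5.93e-06), and also without vehicle replicate 1 (0.107) or 2 (0.102). The thio call was lost without any 1 of 5 of the 6 libraries, all but treated replicate 1 (edgeR adjusted p 0.0727 to 0.0836, from 2.4e-09 to 0.883 over all alternatives).

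In ascites, Ddit3 stood at 62.2, 87.9 and 89.8 CPM with vehicle and at 127, 107 and 115 CPM with AP-3-84, apart but not called (log2 fold change 0.54, edgeR adjusted p 0.0582). It was called by DESeq2 (DESeq2 adjusted p 0.0171) and without the filter on low counts (edgeR adjusted p 2.65e-07), beside 2.24% and 1.67% of genes. No fit that left out 1 library called it. In WT_M1 the gap was wider, 31.9, 39.7 and 48.1 CPM against 95.4, 81.4 and 114 CPM, without a call (log2 fold change 1.28 with an SE of 0.352 and edgeR adjusted p of 0.299). In KO_M2 the value was negative, -1.09, from 45.6, 84.9 and 134 CPM to 56.1, 35.1 and 33.5 CPM (edgeR adjusted p 0.208). That difference was called when vehicle replicate 1 was left out (-1.40, edgeR adjusted p 0.02, from 2.12e-05 to 0.861 over all alternatives). In that fit 4.65% of all genes were called, beside 0.0509% with every library. The 3′ end of Ddit3 overlaps Mars (the methionyl-tRNA synthetase gene) on the opposite strand, and the sources used here do not say whether counting used strand. Mars had 12777 counts over all libraries and Ddit3 27748, so some reads of one could stand under the other. With AP-3-84 Mars was called higher in KO_M0 (log2 fold change 1.03, edgeR adjusted p 0.000229) and was not called in thio. Its part in the Ddit3 values was not tested.

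Ppp1r15a (chromosome 7, 45522916 to 45526268, minus strand) encodes GADD34, the phosphatase subunit that removes the phosphate from eIF2 and so ends the response. It rose in ascites from 11.6, 13.9 and 14 CPM to 41.6, 33.1 and 36 CPM, a log2 fold change of 1.49 (with an SE of 0.113 and edgeR adjusted p of 5.24e-07). In thio it rose from 27.6, 24.4 and 26.7 CPM to 52.3, 53.2 and 60.8 CPM, by 1.08 (with an SE of 0.109 and edgeR adjusted p of 1.4e-05). The lowest treated library was above the highest vehicle library in both populations, and all 13 alternative settings kept both calls. In KO_M0, where other members rose, Ppp1r15a did not pass the test: 19.9, 11.4 and 18.4 CPM with vehicle and 16.4, 17.3 and 18.5 CPM with AP-3-84 (log2 fold change 0.06, edgeR adjusted p 0.904). In WT_M1 it went from 7.15, 9.27 and 8.31 CPM to 20.2, 25 and 16.5 CPM, apart but not called (log2 fold change 1.32 with an SE of 0.314 and edgeR adjusted p of 0.143).

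Trib3 (chromosome 2, 152337422 to 152344032, minus strand), a pseudokinase that is induced by ATF4 and CHOP and restrains both, was called in all 3 of these populations. In ascites it rose from 5.63, 6.06 and 8.19 CPM to 17.2, 13.1 and 11.9 CPM (log2 fold change 1.09 with an SE of 0.215 and edgeR adjusted p of 0.00964). In thio it rose from 2.36, 3.52 and 1.84 CPM to 11.2, 10.3 and 12.4 CPM (log2 fold change 2.14 with an SE of 0.236 and edgeR adjusted p of 3.7e-05). In KO_M0 it rose from 2.36, 3.39 and 2.16 CPM to 10.6, 39.2 and 13.2 CPM (log2 fold change 3.00 with an SE of 0.609 and edgeR adjusted p of 0.000938). None of these groups overlapped, and treated replicate 2 of KO_M0 held the most. The ascites call was lost without vehicle replicate 1 (edgeR adjusted p 0.0651), vehicle replicate 2 (0.0774) or treated replicate 1 (0.0519), within a range of 5.02e-06 to 0.743 over its alternatives, and the other 2 calls held in all 13.

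Trib3 was also higher in every treated library in WT_M1 and WT_M2, without a call in either. WT_M1 went from 3.58, 3.71 and 2.27 CPM to 19.9, 12.9 and 17.9 CPM (log2 fold change 2.39 with an SE of 0.601 and edgeR adjusted p of 0.214). WT_M2 went from 20.6, 12.7 and 9.18 CPM to 38.6, 35.4 and 28.6 CPM (log2 fold change 1.26 with an SE of 0.493 and edgeR adjusted p of 0.261), where 7.98% of genes had no overlap in that direction. In KO_M2 the treated libraries held less on average (13.3, 31.8 and 49.4 CPM against 20.1, 5.16 and 8.24 CPM, log2 fold change -1.52, edgeR adjusted p 0.216), and the groups overlapped. Without vehicle replicate 1 of KO_M2 that value was -1.88 and was called (edgeR adjusted p 0.0293, from 7.12e-06 to 0.859 over all alternatives). Over all genes that fit called 4.65%, beside 0.0509% with every library. Neutrophil markers summed to 339, 596 and 3080 CPM in the KO_M2 vehicle libraries and to 275 to 526 CPM in the treated ones, and their part in the Trib3 and Ddit3 values was not tested.

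**Figure D2:**
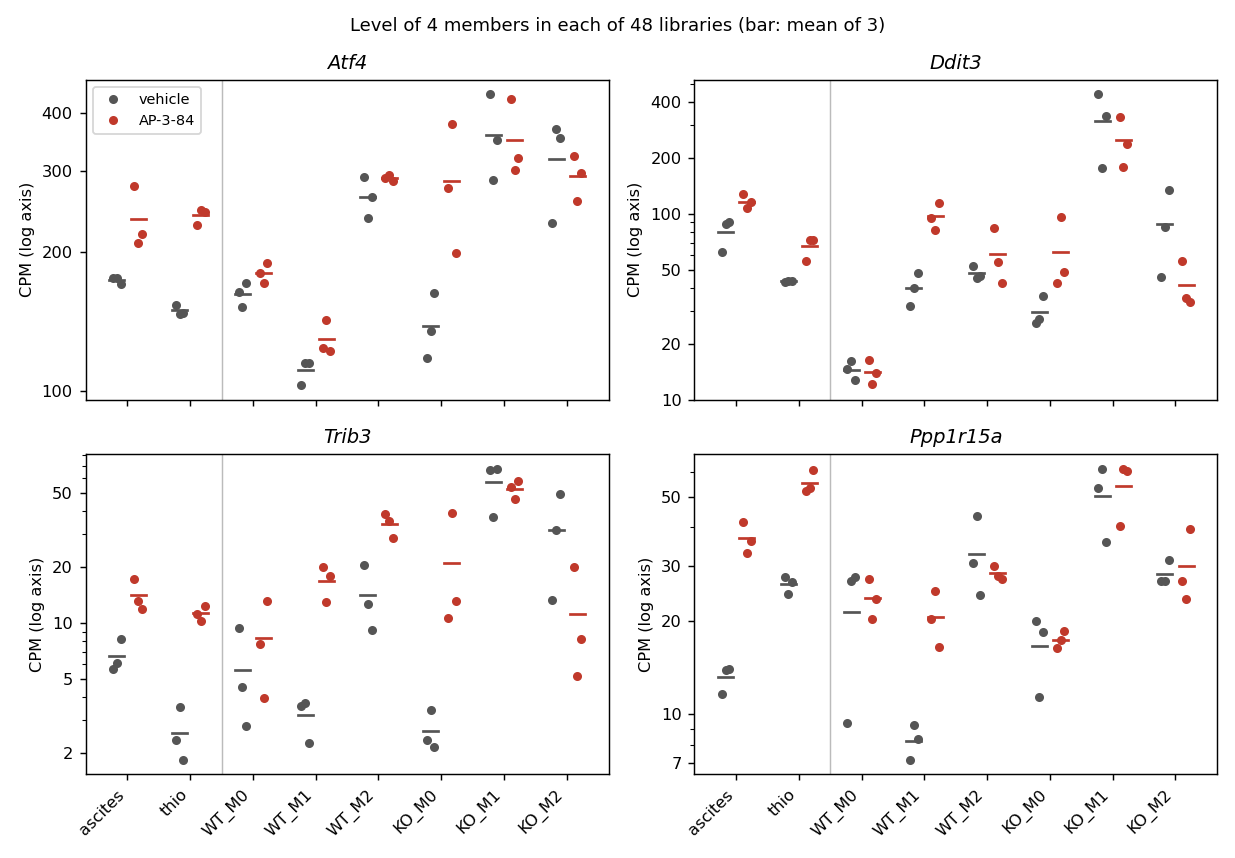
CPM on a log axis of Atf4, Ddit3, Trib3 and Ppp1r15a in each of 48 libraries, vehicle in grey and AP-3-84 in red, with a bar at the mean of 3 libraries. Red points lie above grey ones for all 4 genes in ascites and thio, whereas in KO_M1 the 2 colors overlap at high levels, with Trib3 at 37.2 to 67.4 CPM.

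Chac1 (chromosome 2, 119351229 to 119354381, plus strand) encodes an enzyme that breaks down glutathione and is a marker of the ATF4 and CHOP branch. It rose in KO_M0 from 0.786, 1.23 and 0.811 CPM to 7.58, 16.5 and 6.09 CPM, 10 against 120 counts in sum. The log2 fold change of 3.39 (with an SE of 0.69 and edgeR adjusted p of 0.000732) was the largest of any member in any population, and all 13 alternatives kept the call. In thio Chac1 held only 13 counts over the 3 vehicle libraries (0.575, 0.243 and 0 CPM) and 42 over the treated ones (1.36, 1 and 0.402 CPM). At that depth the log2 fold change of 1.78 was not called (with an SE of 0.664 and edgeR adjusted p of 0.171). In ascites, with more counts, it was -0.13 (SE 0.483), at 3.35, 4.53 and 3.58 CPM with vehicle and 3.08, 3.36 and 4.02 CPM with AP-3-84.

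Sesn2 (chromosome 4, 132492032 to 132510501, minus strand) and Ddit4 (chromosome 10, 59949669 to 59951834, minus strand) encode Sestrin 2 and REDD1, both of which restrain mTORC1 signalling. Sesn2 rose in thio from 2.87, 3.16 and 3.58 CPM to 5.68, 5.95 and 5.22 CPM (log2 fold change 0.81 with an SE of 0.215 and edgeR adjusted p of 0.0419). In KO_M0 it rose from 5.5, 4.31 and 7.57 CPM to 13.1, 16.5 and 10.9 CPM (log2 fold change 1.21 with an SE of 0.279 and edgeR adjusted p of 0.00225). Groups were apart in both, but leaving out any 1 of the 6 thio libraries ended the thio call (edgeR adjusted p 0.0753 to 0.162, from 0.0193 to 0.206 over all alternatives). In ascites the values were 7.25, 7.34 and 8.52 CPM and 15.7, 10.6 and 9.31 CPM (log2 fold change 0.62, edgeR adjusted p 0.168). In the wild-type bone marrow-derived populations its log2 fold change was -0.19 in WT_M0, where the groups overlapped, and 0.46 in WT_M1 and 0.64 in WT_M2, where all treated libraries were above all vehicle ones, with no call (edgeR adjusted p 0.849, 0.714 and 0.286).

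Ddit4 was called in none of the 8 populations. Its log2 fold changes ran from -0.74 in thio (edgeR adjusted p 0.302), where it held 60 counts over the vehicle and 32 over the treated libraries, to 1.58 in WT_M1 (edgeR adjusted p 0.376). In WT_M1 it stood at 2.98, 7.42 and 3.78 CPM with vehicle and 10.6, 10.8 and 21.5 CPM with AP-3-84, so the groups were apart. Vldlr (chromosome 19, 27216484 to 27254231, plus strand), the VLDL receptor, which has been described as an ATF4 target, also had no call. It held 7 counts over the vehicle and 27 over the treated libraries of WT_M1 (0.894, 0.265 and 0.755 CPM against 3.84, 2.02 and 2.31 CPM). The log2 fold change there was 2.04 (with an SE of 0.775 and edgeR adjusted p of 0.493), and in the other populations it ran from -0.73 to 0.45.

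Marker genes moved with the members in KO_M0. Summed over 8 M1 markers, the treated libraries stood at 598, 322 and 192 CPM and the vehicle libraries at 131, 149 and 137 CPM, with Nos2 at 0 counts in the vehicle group. Summed over 8 M2 markers they stood at 142, 84.9 and 308 CPM against 476, 430 and 371 CPM, with Ccl17 at 0 counts in the treated group. The 10 macrophage markers summed to 41400, 20200 and 30200 CPM with AP-3-84 and 33100, 38100 and 39900 CPM with vehicle, and of the 10, 4 were called higher (Aif1 at 1.97) and 3 lower. Neutrophil markers summed to 278 to 435 CPM with AP-3-84 and 531 to 661 CPM with vehicle. Treated replicate 2, the highest for Atf4, Ddit3, Trib3, Chac1 and Sesn2, was the lowest of the 6 for macrophage and M2 markers. Without it 4 members were called, Atf4, Trib3, Chac1 and Sesn2, and 8.9% of genes. The part of these markers and of that library in the member values was not tested otherwise. In ascites the macrophage markers summed to 29600 to 31400 CPM with vehicle and 24700 to 29300 CPM with AP-3-84, without overlap, and 1 of 10 was called lower (Fcgr1, -0.31), while the summed M2 markers overlapped (780 to 893 and 849 to 889 CPM). In thio the M2 markers did not overlap, at 318 to 330 CPM and 293 to 298 CPM, nor did the macrophage markers, at 34600 to 35100 CPM and 27900 to 33100 CPM, and of the 10 macrophage markers 4 were called lower and 1 higher there. In WT_M1 the neutrophil markers summed to 440 to 569 CPM with vehicle and 668 to 1320 CPM with AP-3-84. In WT_M2 the M1 markers summed to 346 to 680 CPM with vehicle and 122 to 187 CPM with AP-3-84, with 3 of them called lower (Il1b at -4.00), and the M2 markers to 9210 to 11100 and 6140 to 7210 CPM. Cd14 was the 1 macrophage marker called there (-1.28). The part of these markers in the member values was not tested either.

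Whether the response differed between populations was tested directly for 8 pairs of populations and 10 members. Of those 80 differences 15 were called, and all 15 involved KO_M0 or KO_M2. In KO_M0 against WT_M0, 5 members differed (4 larger in KO_M0, 1 smaller), where 17% of genes did. The differences in log2 fold change were 3.97 for Chac1 (with an SE of 0.942 and edgeR adjusted p of 0.00434), 2.45 for Trib3 (with an SE of 0.846 and edgeR adjusted p of 0.0455), 1.40 for Sesn2 (with an SE of 0.377 and edgeR adjusted p of 0.0103), 0.89 for Atf4 (with an SE of 0.264 and edgeR adjusted p of 0.019) and -0.90 for Cebpg (with an SE of 0.3 and edgeR adjusted p of 0.0365). Chac1 and Sesn2 kept their calls in all 19 alternatives, whereas Trib3 lost its call in 11 of them, Cebpg in 10 and Atf4 in 2. The count fell to 2 without vehicle replicate 1 or treated replicate 2 of KO_M0. It fell to 3 without vehicle replicate 1, treated replicate 1 or treated replicate 2 of WT_M0 or vehicle replicate 2 of KO_M0. The share of all genes in these fits is not given.

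Within KO cells, the response in M2 was smaller than in M0 for 5 members (Trib3 by -4.51, Chac1 by -3.89, Ddit3 by -2.17, Sesn2 by -1.43 and Atf4 by -1.16) and larger for Cebpg (1.28), where 15.8% of genes differed. In M1 it was smaller than in M0 for 3, Chac1 (-3.38), Trib3 (-3.11) and Atf4 (-1.08), against 6.12% of genes. That count of 3 became 0 without treated replicate 2 of KO_M0 and 6 without treated replicate 3. The share of all genes that differed in those fits is not given. In the same fits 8.9% and 29.8% of genes were called for AP-3-84 against vehicle in KO_M0, beside 20.7% with every library. The M2 and M1 contrasts with M0 share the KO_M0 libraries with the one between genotypes and with each other, so they are not separate evidence. Between KO_M2 and WT_M2 only Trib3 differed, by -2.78 (with an SE of 0.704 and edgeR adjusted p of 0.0378), where 1.77% of genes did. That call was lost without any 1 of 8 of the 12 libraries (edgeR adjusted p 0.0818 to 0.16, from 1.4e-10 over all alternatives). Without vehicle replicate 1 of KO_M2 3 members were called, and the share of all genes in that fit is not given.

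In the other 4 contrasts edgeR called 0 members. The shares of genes in brackets below are at the adjusted p. They are no measure for the unadjusted counts, whose share over all genes is not given. Between ascites and thio (0.118% of genes called) 4 members passed an unadjusted p under 0.05, the largest difference being -1.92 for Chac1 (with an SE of 0.822 and edgeR adjusted p of 0.599), followed by -1.05 for Trib3 (with an SE of 0.317 and edgeR adjusted p of 0.434). For Ppp1r15a the difference was 0.41 (with an SE of 0.156 and edgeR adjusted p of 0.546). Between KO_M1 and WT_M1 (0.00849% of genes) 4 passed unadjusted, with -2.51 for Trib3 (SE 0.754), -1.63 for Ddit3 (SE 0.483) and -1.21 for Ppp1r15a (SE 0.412), and edgeR adjusted p of 0.584, 0.572 and 0.618. Between WT_M1 and WT_M0 (0.0255%) 4 passed unadjusted, and between WT_M2 and WT_M0 (0.136%) 1 did. DESeq2 called 0 in each of these 4 contrasts.

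**Figure D3:**
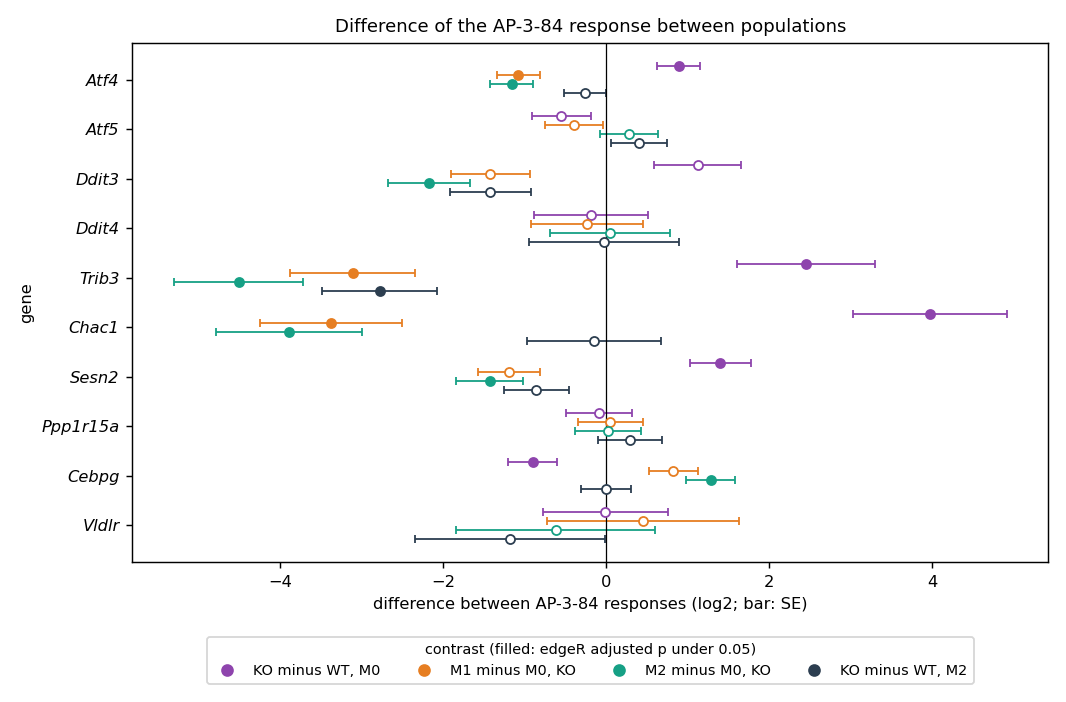
Difference between the log2 responses to AP-3-84 of pairs of populations (x axis, bars 1 SE) for each member (rows), for the 4 contrasts that hold a called difference, filled at an edgeR adjusted p under 0.05. Trib3 spans from -4.51 (M2 minus M0 in KO) to 2.45 (KO minus WT in M0), while Ppp1r15a lies between -0.09 and 0.29.

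The level without compound differed widely between populations. With vehicle, Trib3 averaged 56.9 ± 17.1 CPM in KO_M1 (SD, n = 3), 31.5 ± 18 in KO_M2, 14.1 ± 5.85 in WT_M2, 5.59 ± 3.43 in WT_M0, 3.18 ± 0.798 in WT_M1 and 2.64 ± 0.657 in KO_M0. Each neighbouring pair in that order overlapped, while every library of KO_M1 and KO_M2 stood above every library of WT_M0, WT_M1 and KO_M0. Ddit3 ran from 14.5 ± 1.74 CPM in WT_M0 through 29.7 ± 5.49 in KO_M0, 39.9 ± 8.1 in WT_M1, 48 ± 4.04 in WT_M2 and 88.3 ± 44.5 in KO_M2 to 317 ± 133 in KO_M1. Its KO_M1 libraries (439, 176 and 336 CPM) were above, and its WT_M0 libraries below, every other vehicle library of bone marrow origin, and the neighbours between them overlapped.

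KO_M1 was the vehicle group in which most members stood high. Against WT_M1 6 members were higher and 0 lower, where 11.6% of genes differed. Trib3 was higher by a log2 fold change of 4.16 (with an SE of 0.58 and edgeR adjusted p of 5.38e-05), Ddit3 by 2.99 (with an SE of 0.364 and edgeR adjusted p of 8.15e-06), Chac1 by 2.68 (with an SE of 0.615 and edgeR adjusted p of 0.00478) and Ppp1r15a by 2.60 (with an SE of 0.306 and edgeR adjusted p of 1.5e-06). Atf5 (1.87) and Atf4 (1.69) followed, and all 6 calls held in all 13 alternatives. Scaled by total counts, the median log2 fold change of all genes in this contrast was 0.27, beside 0 with TMM scaling. Macrophage markers summed to 17400, 26500 and 17900 CPM in KO_M1 and 45100, 47000 and 48200 CPM in WT_M1. The 8 neutrophil markers summed to 1630, 983 and 2390 CPM against 487, 569 and 440 CPM. Their part in the member levels was not tested.

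In M0 the genotypes differed in both directions. There 3 members were higher in KO_M0 (Atf5 by 1.20, Ddit3 by 1.03 and Cebpg by 0.69) and 3 lower (Vldlr by -2.66, Chac1 by -1.95 and Sesn2 by -1.47), beside 33.2% of genes. Summed markers differed there too, without overlap: fibroblast markers stood at 161 to 288 CPM in KO_M0 and 22.7 to 26.2 CPM in WT_M0, and neutrophil markers at 531 to 661 and 250 to 462 CPM. Ly6g was at 0 counts in KO_M0 and Pdgfra in WT_M0. The part of these markers in the member levels was not tested. The calls of Ddit3 (edgeR adjusted p 0.0387) and Chac1 (0.04) were lost without any 1 of 6 and of 5 libraries. In M2, 2 members were lower in KO, Vldlr by -2.54 and Sesn2 by -0.97, beside 3.56% of genes. Both calls were lost without vehicle replicate 1 of WT_M2 (edgeR adjusted p 0.12 for Sesn2 and 0.264 for Vldlr) and without vehicle replicate 1 of KO_M2 (0.141 and 0.0936). Leaving out any 1 of the other 4 libraries ended 1 of them. Neutrophil markers summed to 3760, 562 and 422 CPM in the WT_M2 and 339, 596 and 3080 CPM in the KO_M2 vehicle libraries. Scaled by total counts, the median log2 fold change of all genes was 0.19, beside 0.01 with TMM scaling, and 0 members were called. The same Sesn2 contrast in M1 was -0.27 (edgeR adjusted p 0.54).

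Polarized and unpolarized vehicle libraries were also compared, and the counts of members stand beside large shares of all genes. In WT cells, M1 against M0 had 1 member higher (Ddit3, 1.46) and 4 lower (Vldlr -3.65, Ppp1r15a -1.35, Cebpg -0.72 and Atf4 -0.55), beside 15.5% of genes. Scaled by total counts, the median log2 fold change of all genes there was -0.3, beside 0 with TMM scaling. The number of calls was 3 without vehicle replicate 2 of WT_M0 or vehicle replicate 2 or 3 of WT_M1. The share of all genes in those fits is not given. The Atf4 call (edgeR adjusted p 0.0433) was lost without any 1 of the 6 libraries (0.0591 to 0.136) and with a replicate block (0.0522). M2 against M0 in WT had 3 higher (Atf5 2.19, Ddit3 1.72 and Atf4 0.70), beside 23.4%. In KO cells, M1 against M0 had 6 higher, led by Trib3 (4.43), Chac1 (3.67) and Ddit3 (3.42), and Cebpg lower (-0.77), beside 44.5%. M2 against M0 in KO had 6 higher, led by Trib3 (3.58) and Chac1 (2.93), beside 38%. The KO_M0 vehicle libraries stand in both KO comparisons. Macrophage markers summed to 33100 to 39900 CPM in KO_M0, 17400 to 26500 CPM in KO_M1 and 6390 to 18900 CPM in KO_M2, and neutrophil markers to 531 to 661, 983 to 2390 and 339 to 3080 CPM. Fibroblast markers summed to 161 to 288, 97.5 to 135 and 47.5 to 78.9 CPM. The part of these markers in the member levels was not tested.

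In the peritoneal vehicle libraries, 5 members were higher in ascites than in thio cells and 2 lower, beside 33.7% of genes. Scaled by total counts, the median log2 fold change of all genes there was 0.14, beside 0.05 with TMM scaling. Ddit4 stood at 13.9, 14.4 and 16.8 CPM in ascites and 0.766, 1.58 and 1.19 CPM in thio (log2 fold change 3.66 with an SE of 0.258 and edgeR adjusted p of 3.76e-09). Chac1 was higher by 3.83, Trib3 by 1.37, Sesn2 by 1.26 and Ddit3 by 0.88, while Ppp1r15a (-0.99) and Cebpg (-0.36) were lower. Ppp1r15a, which rose with the compound in both populations, thus began from the lower level in ascites. The epithelial markers given above moved with this contrast, as did the labelled strain genotype, and their part was not tested.

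**Figure D4:**
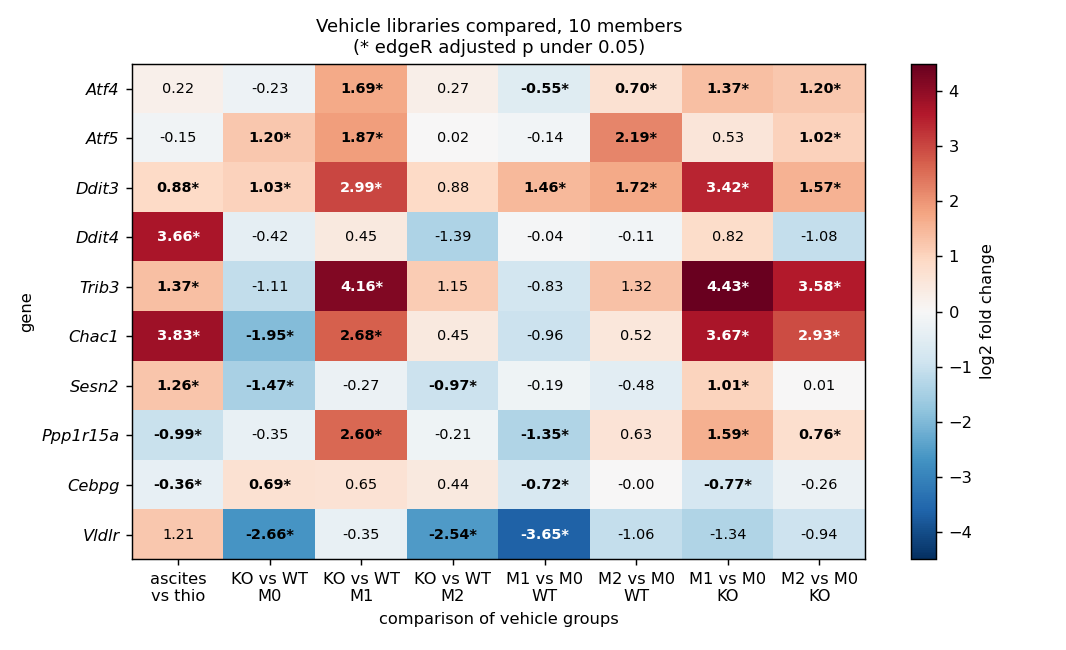
Log2 fold change of each member (rows) between vehicle groups (columns, 3 libraries a group), as color and number, with an asterisk at an edgeR adjusted p under 0.05. KO against WT in M1 holds 6 higher members with Trib3 at 4.16, whereas M1 against M0 in WT holds 4 lower ones with Vldlr at -3.65.

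Other genes of the pathway were counted in 7 lists, chosen with earlier results of these data known. Upstream, of 17 genes for the eIF2 kinases, eIF2, eIF2B and the phosphatase, 1 rose in ascites (Eif2s2, 0.30), 1 rose in thio (Eif2s2, 0.32) and 1 fell, and 6 rose and 2 fell in KO_M0, with Impact, a regulator of GCN2, at 1.12. Of 6 partner transcription factors, 1 rose in ascites (Atf3, 0.81), 3 rose in thio (Nupr1 at 0.56) and 3 rose in KO_M0 (Jdp2 at 1.59). The same background shares apply as for the members, so counts in KO_M0 stand beside 20.7% of all genes.

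Downstream, the enzymes and transporters of amino acid supply were counted in the same way, and differences between populations were not tested. Of the amino acid and one-carbon enzymes tested, 2 of 12 rose in thio (Asns, the asparagine synthetase, at 2.72) and 0 of 12 in ascites. In KO_M0, 5 of 10 rose, led by Mthfd2, a mitochondrial folate enzyme, at 2.84, and 1 fell. Of 10 transporters, 2 rose and 1 fell in ascites, 4 rose and 1 fell in thio, and 4 rose and 1 fell in KO_M0. The largest were Slc7a11, the cystine transporter, at 1.06 in ascites, Slc6a9, a glycine transporter, at 3.16 in thio, and Slc1a4 at 3.20 in KO_M0. Of 14 genes for tRNA synthetases and tRNA export, 2 rose in ascites (Sars at 0.47), 4 in thio (Cars at 0.77) and 12 in KO_M0 (Aars at 1.43), and 0 fell.

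Of 12 further ATF4 or CHOP targets tested, 2 rose in ascites, 3 in thio, and 4 rose and 3 fell in KO_M0. Gdf15, a secreted stress cytokine that p53 also induces, was the largest rise in each of these, at 1.08, 0.94 and 1.38. It was also the only list gene called in WT_M1 (2.46 with an SE of 0.318 and edgeR adjusted p of 0.000132), and Sqstm1 the only one in WT_M0 (0.88, edgeR adjusted p 0.042). Of 18 endoplasmic reticulum chaperones and other genes of the unfolded protein response, 0 were called in ascites, 2 rose in thio (Hspa5, the chaperone BiP, at 0.50) and 4 rose in KO_M0 (Manf at 1.06). Of all genes, 2.51% were called higher in thio and 12.1% in KO_M0. The median log2 fold change of this list was 0.08, 0.13 and 0.26 in the 3 populations, and its difference from the other lists was not tested. In WT_M2, KO_M1 and KO_M2 edgeR called 0 genes of the 7 lists.

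**Figure D5:**
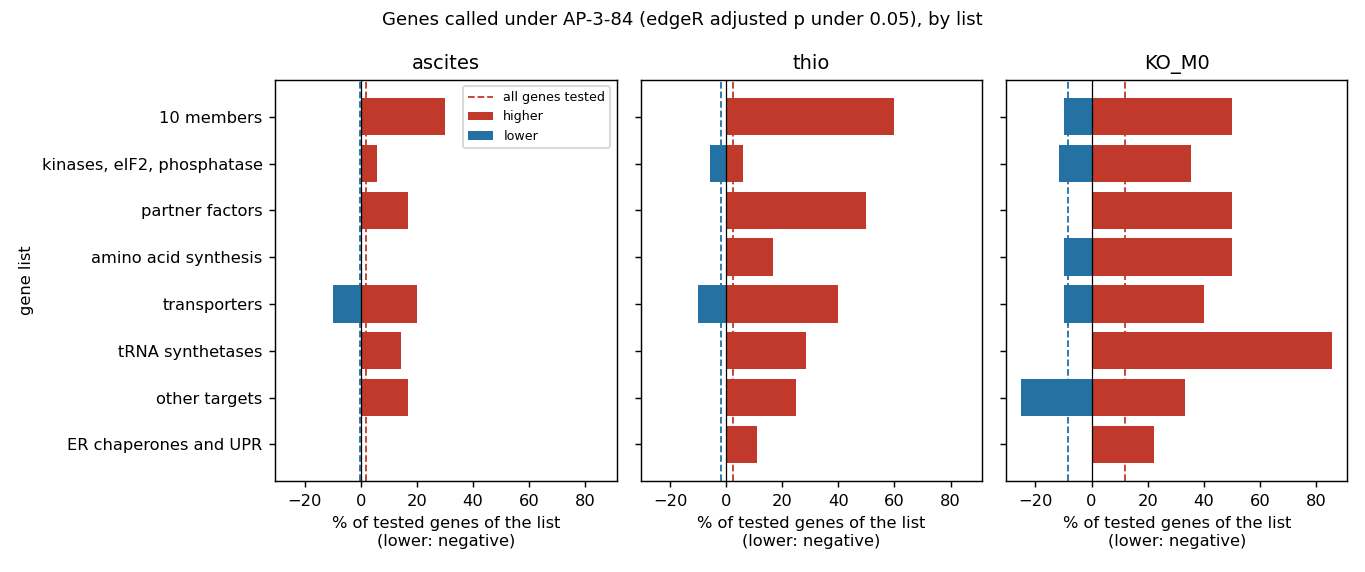
Percent of the tested genes of each list (rows) called higher (red, right) or lower (blue, left) with AP-3-84 in ascites, thio and KO_M0, with dashed lines at the share of all genes called in that direction. The members reach 30% higher in ascites and 60% in thio, and 12 of 14 tRNA synthetase genes are higher in KO_M0.

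The genes most like Trib3 and Ddit3 over the 48 libraries were sought by the Pearson correlation of log2 CPM, after subtracting the vehicle mean of each population, among 7721 genes. For Trib3 these were Ddit3 (r = 0.866), Aars (0.862), Osgin2 (0.842), Carhsp1 (0.833) and Gars (0.805). For Ddit3 they were Trib3 (0.866), Carhsp1 (0.79), Treml2 (0.787), Git1 (0.764) and Tubg1 (0.761). Aars and Gars are tRNA synthetase genes of the lists above. The 48 points share treatments, populations and library size, so these values are a description without a test.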

How the data were processed

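RNA from 48 libraries (3 in each of 16 groups) was sequenced by a 3′ method (QuantSeq FWD), per the labels' protocols. The authors deposited whole-number counts per gene, which may be rounded estimates: the submitters' processing notes name RSEM, Bowtie2 and DESeq2 without role or version. For that counting, no source used here states the genome build, the annotation or the strand setting. Gene coordinates are from GENCODE M21 (GRCm38) and promoter windows from RefSeq (GRCm38.p6).

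Peritoneal (12) and bone marrow-derived (36) libraries were fitted separately with edgeR 4.0.16 (R 4.3.3, limma 3.58.1) by the robust quasi-likelihood test, after filterByExpr by group and TMM scaling, without a replicate term. A call is a Benjamini-Hochberg adjusted p under 0.05 over all genes tested in that comparison. There were 24 comparisons: 8 of compound with vehicle, 8 differences between such responses and 8 between vehicle groups. CPM were computed from the counts with TMM scaling within each fit. The fit was tested on simulated data. Alternatives were other scaling, no filter, a replicate block, DESeq2 1.42.0, only the groups compared, all 48 libraries together, and each library left out.

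All members are named. From each other list the called gene with the largest change in a population may be named, and Mars is named for its overlap with Ddit3. Likeness used log2 CPM (prior count 2) of genes averaging at least 3. The members and lists were chosen with earlier results of these data known. Counting error and library number limit the precision, most for Vldlr, Chac1 and Ddit4.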

Additional observations from a re-analysis of the deposited data

Results flagged for a closer look

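The test of the difference between 2 responses to AP-3-84 passed an edgeR adjusted p under 0.05 for 15 differences, given here as differences in log2 fold change. KO_M0 minus WT_M0 gave 0.89 for Atf4, 2.45 for Trib3, 3.97 for Chac1, 1.40 for Sesn2 and -0.90 for Cebpg. KO_M2 minus WT_M2 gave -2.78 for Trib3. Within KO cells, M1 minus M0 gave -1.08 for Atf4, -3.11 for Trib3 and -3.38 for Chac1. M2 minus M0 gave -1.16 for Atf4, -2.17 for Ddit3, -4.51 for Trib3, -3.89 for Chac1, -1.43 for Sesn2 and 1.28 for Cebpg. Of the 15, 14 use the KO_M0 libraries. For KO_M0 minus WT_M0 the calls of Trib3 and Cebpg were lost in 11 and 10 of 19 alternatives. The Trib3 call for KO_M2 minus WT_M2 was lost in 9, and the Sesn2 call for M2 minus M0 in 6.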

How the results depend on the processing

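The number of members called moved by more than 1.5 times in these cases. With all 48 libraries in one fit it was 1 in ascites, 2 in thio, 1 in WT_M1 and 6 for M1 minus M0 in KO. Without the filter it was 4 in WT_M1, 1 in WT_M2, 2 in KO_M2, 1 for ascites minus thio, 2 for KO minus WT in M1, 2 for it in M2 and 2 for M1 minus M0 in WT. DESeq2 gave 2 in WT_M1, 5 for M1 minus M0 in KO and 1 for vehicle KO against WT in M2. Fitting only the groups compared gave 3 in WT_M1, 3 in KO_M0, 3 for KO minus WT in M0, 1 for it in M1, 0 for it in M2, 2 for M2 minus M0 in KO and 0 for vehicle KO against WT in M2, and total-count scaling gave 0 for the last. The cause was not tested. Over all genes the share called with AP-3-84 moved too. It was 0.811% in ascites, 0.376% in thio and 0.123% in WT_M1 with all 48 libraries. Without the filter it was 1.01% in WT_M1, 2.18% in WT_M2 and 2.53% in KO_M2. DESeq2 gave 0.238% in WT_M1, and fitting only the groups compared gave 1.08% in WT_M1 and 6.81% in KO_M0. Shares of the other contrasts under these settings are not given. With total-count scaling the median of all genes was 0.11 in WT_M2 with AP-3-84 and -0.15 for KO minus WT in M2. It was 0.11 for M2 minus M0 in WT, 0.11 for M1 minus M0 in KO and -0.2 for vehicle M2 against M0 in WT. With TMM scaling these medians lay between -0.01 and 0.01.

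Leaving out 1 library, the count ranged from 2 to 3 in ascites, 3 to 4 in thio, 4 to 6 in KO_M0 and 0 to 2 in KO_M2. Over all genes the share called there ran from 1.12% to 1.79%, 2.44% to 3.42%, 8.9% to 29.8% and 0% to 4.65%. Among response differences the count was 2 to 5 for KO minus WT in M0 and 0 to 3 for it in M2. For M1 minus M0 in KO the count was 0 to 6. Between vehicle groups the count was 0 to 1 for KO against WT in M2 and 3 to 4 for M1 against M0 in WT. For these response differences and vehicle groups the share of all genes is not given.

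Values that changed sign were not called. With total-count scaling these were Atf5 in WT_M2 (0.01) and KO_M0 (-0.03), Ppp1r15a in KO_M0 (-0.01) and Atf4 in KO_M1 (0.01). Leaving out 1 library, the log2 fold change with AP-3-84 ranged in ascites from -0.25 to 0.01 for Chac1, -0.11 to 0.03 for Cebpg and -0.47 to 0.24 for Vldlr, and in thio from -0.61 to 0.44 for Vldlr. In WT_M0 it ranged from -0.16 to 0.05 for Ddit3, -0.20 to 0.39 for Ppp1r15a and -0.20 to 0.04 for Vldlr, and in WT_M1 from -0.24 to 0.09 for Cebpg. In WT_M2 it ranged from -0.30 to 0.07 for Atf5, -0.73 to 0.83 for Chac1 and -0.38 to 0.05 for Ppp1r15a. In KO_M0 it ranged from -0.14 to 0.25 for Atf5, -0.00 to 0.68 for Ddit4, -0.14 to 0.22 for Ppp1r15a and -0.76 to 0.45 for Vldlr. In KO_M1 it ranged from -0.21 to 0.13 for Atf4, -0.01 to 0.41 for Ddit4, -0.34 to 0.03 for Trib3, -0.05 to 0.12 for Chac1, -0.05 to 0.08 for Sesn2 and -0.09 to 0.28 for Ppp1r15a. In KO_M2 it ranged from -0.30 to 0.00 for Atf4, -0.58 to 0.06 for Sesn2, -0.18 to 0.25 for Ppp1r15a and -1.33 to 3.65 for Vldlr.

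Replicates of the same number did not pair: their correlations ran from -0.498 to 0.509 over 24 pairs, no population had every pair over 0.1, and 11 of 48 libraries correlated best with their own number. With a replicate block the count was 3 in ascites, 5 in thio and 6 in KO_M0, beside 1.43%, 3.29% and 20.5% of genes. It was 4 for KO minus WT in M0, 4 for vehicle M1 against M0 in WT, and as without the block in the other comparisons.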
